A study of Mus musculus with 64 samples.

Results

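The snoRNA host genes described here are 10 noncoding genes, Snhg1, Snhg3, Snhg5, Snhg6, Snhg8, Snhg12, Snhg15, Gas5, Zfas1 and Dancr. They were chosen by gene symbol, as rows of the count table, out of 55335 genes in it. The choice was made with earlier results of these counts known, and which values led to it is not recorded. The counts of members that passed a test are therefore given as a description, and nothing is read from them about snoRNA hosts as a class. All 10 rows held reads, all 10 passed the filter on low counts in the 12 h libraries, and 9 passed it in the 0 h and 1 h libraries, where Snhg3 did not.

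Small nucleolar RNAs (snoRNAs) guide the chemical modification of ribosomal and spliceosomal RNA, box C/D snoRNAs directing ribose methylation and most box H/ACA snoRNAs directing the conversion of uridine to pseudouridine. In mammals most of them are cut from introns, and the genes whose introns carry them are called hosts. The spliced exons of a noncoding host such as Gas5 are exported but are poor messengers; for Gas5 and several Snhg RNAs they are degraded in the cytoplasm by nonsense-mediated decay, so that the steady level is low for the rate at which the gene is transcribed. Several hosts also start within a run of pyrimidines like that of ribosomal protein genes, the terminal oligopyrimidine (TOP) start.

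The cells were mouse embryonic stem cells of the V6.5 line, wild type (WT) or carrying a degron on 1 of the 12 subunits of RNA polymerase II, RPB1 to RPB12. A degron is a tag through which auxin (IAA), with the plant receptor OsTir1, sends the protein to the proteasome. All groups, controls included, were grown with the inhibitors CHIR99021 (3 µM) and PD0325901 (0.5 µM), and all were described as pretreated for 12 h with doxycycline to induce OsTir1. The sample labels give the doxycycline dose as 2 µg/ml and the series text gives a lower one. Whether WT cells carry OsTir1, and whether each line is 1 clone, was not given in the sources used here. WT and the 12 degron lines were sampled untreated and after 12 h of IAA at 500 µM (26 groups), and the RPB1, RPB3 and RPB6 lines also at 0 h and 1 h of IAA (6 groups). Each group had 2 libraries, 64 in all. Nothing in the labels says that these came from separate cultures, so the tests measure only the spread between these libraries, which may be technical. A poly(A) library is named for the 12 h samples only, and the 0 h and 1 h libraries were fitted apart from them. A spike-in of Drosophila S2 cells (10%) is described, and its counts were not used here, so all values are shares of the mouse RNA. In bulk RNA, fewer cells of a kind and less RNA per cell cannot be told apart.

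The 12 h libraries held 3399838 to 7164928 counts each and the 0 h and 1 h libraries 8598431 to 13281252. The 6 embryonic stem cell markers (Pou5f1, Sox2, Nanog, Esrrb, Zfp42 and Tdgf1) summed to 3396 to 5258 CPM (counts scaled to the size of the library) in untreated libraries and 2296 to 4505 after 12 h of IAA. Markers of fibroblasts, the usual feeder cells, summed to 3.07 to 13.6 CPM untreated and 2.29 to 24.2 CPM treated, with Postn at 0 in all libraries of that set. Replicates differed most between the 2 untreated RPB7 libraries, at a chi-square of 14.7 per degree of freedom, where the next highest of the 32 groups was at 9.16, and the treated RPB3 libraries held 0.534% and 1.72% mitochondrial mRNA. Of the 3 lines of the 0 h and 1 h set, the RPB3 libraries correlated most with the untreated libraries of their own line in the 12 h set, and those labelled RPB6 least. In the latter Snhg1 stood at 501 and 475 CPM in the 0 h pair, against 104 and 96.5 CPM in the untreated RPB6 libraries of the 12 h set and 308 and 441 CPM in those of RPB7. Over 10471 genes the 0 h RPB6 profile, each set taken against its own mean, correlated with the untreated profile of its own line at -0.07, and with those of RPB7 and RPB4 at 0.31 and 0.30. The 0 h RPB3 profile correlated highest with its own line (0.56). The 0 h RPB1 profile did not: it correlated at 0.11 with its own line, at 0.31 with WT and at 0.27 with RPB9, and the 1 h results for RPB1 rest on these libraries. The pairs labelled RPB6 are written below as the libraries labelled RPB6. Their 1 h response is given apart from those of RPB1 and RPB3, and each result that sets it against them is also given without it.

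Of the 34 snoRNA genes that the GENCODE M21 annotation places inside the 10 hosts on the same strand, 21 carried the box C and box D letters (TGATGA near the start, CTGA near the end) and 8 the ACA letters of box H/ACA snoRNAs, 3 bases before their end. The remaining 5 had neither. Among all 1507 annotated snoRNA genes the shares were 20.7% C/D and 42.0% H/ACA, against 61.8% and 23.5% here. Gas5 held 10 snoRNA genes (8 with C and D letters) and Snhg1 held 8 (6 with them). Snhg12 was the only host of the 10 with both kinds, 1 C/D and 3 H/ACA. These are counts of annotated entries: Snora16a in Snhg12 and Snord80 in Gas5 are each entered more than once at overlapping positions. Snord22, Snord78 and Snora44 carried neither set of letters although their names are those of C/D and H/ACA snoRNAs, so the letters miss some. Snhg5, Snhg6 and Zfas1 held C/D genes only, and Snhg3, Snhg8, Snhg15 and Dancr held H/ACA genes only. The sequences of 5 of these snoRNA genes are shown as examples, of which Gm23201 and Snora73b had reads of their own. They are the GENCODE M21 sequences on the host's strand, with mm10 positions and with the C and D boxes, or the ACA, in capitals. Snord47 lies in Gas5 at chr1:161038082-161038158 on the plus strand, Gm23246 in Snhg1 at chr19:8725594-8725660 on the plus strand, Snord50a in Snhg5 at chr9:88521529-88521600 on the minus strand, Gm23201 in Zfas1 at chr2:167064998-167065086 on the plus strand and Snora73b, a copy of U17, in Snhg3 at chr4:132352322-132352526 on the minus strand.
Snord47: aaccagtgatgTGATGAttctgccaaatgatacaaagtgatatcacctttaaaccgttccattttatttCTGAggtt
Gm23246: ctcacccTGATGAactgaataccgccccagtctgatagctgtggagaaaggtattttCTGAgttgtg
Snord50a: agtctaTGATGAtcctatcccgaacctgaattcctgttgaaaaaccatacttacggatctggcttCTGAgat
Gm23201: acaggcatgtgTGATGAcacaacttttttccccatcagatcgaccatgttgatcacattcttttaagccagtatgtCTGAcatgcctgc
Snora73b: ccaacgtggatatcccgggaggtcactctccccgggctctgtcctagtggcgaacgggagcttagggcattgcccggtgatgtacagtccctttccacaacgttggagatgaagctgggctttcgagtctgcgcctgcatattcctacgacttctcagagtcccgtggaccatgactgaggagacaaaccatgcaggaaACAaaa

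Of the promoters, 5 are shown, those with TATAA on either strand, so that the starts of Snhg8 and Snhg5, the hosts with the highest and the lowest median 12 h value over the lines, can be set side by side. RefSeq (GRCm38.p6) listed 10 promoters for 9 of the 10 genes. Each window below runs from 50 bases before the start site to 30 after it on the gene's strand, with the letters TATAA (searched from 40 to 15 bases before the start) and the longest run of C and T within 25 bases of the start in capitals. Snhg5 (chr9:88522868-88522947, minus strand), Snhg8 (chr3:123508307-123508386, minus strand) and Snhg12 (chr4:132308628-132308707, plus strand) held TATAA. That is 3 of the 10 promoters, against 3.52% of all 32851 promoters in the table. On the other strand the letters stood in 2 more, Snhg1 (chr19:8723437-8723516, plus strand) and the second Gas5 promoter (chr1:161035116-161035195, plus strand), against 1.68% of all promoters.
Snhg5: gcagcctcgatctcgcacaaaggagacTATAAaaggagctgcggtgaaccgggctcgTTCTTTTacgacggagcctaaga
Snhg8: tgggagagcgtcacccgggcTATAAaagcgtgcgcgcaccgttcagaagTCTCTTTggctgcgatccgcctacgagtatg
Snhg12: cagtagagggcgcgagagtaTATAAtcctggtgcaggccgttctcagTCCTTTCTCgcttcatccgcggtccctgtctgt
Snhg1: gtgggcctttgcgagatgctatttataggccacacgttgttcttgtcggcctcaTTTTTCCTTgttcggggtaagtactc
Gas5 second promoter: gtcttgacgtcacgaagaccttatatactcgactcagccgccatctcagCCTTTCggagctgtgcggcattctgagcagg
The longest C and T run was 9 bases in Snhg1 and Snhg12, a length that 13.3% of all promoters reach or pass. It was 7 bases in Snhg5 and Snhg8 (29.3%) and 6 in the second Gas5 promoter (43.9%), and the longest, 10 bases, was in Dancr (9.28%). Counted from the start site, the run began at 13 in Dancr, 7 in Snhg5 and 4 in Snhg1, so these do not lie at the start. It began at -1 in Snhg8 and the second Gas5 promoter and at -3 in Snhg12. The length of a run alone does not mark a TOP start. The median was 6.5 bases over the 10 promoters and 5 over all. A match is a match of letters only, on a RefSeq start site, and was not tested for use in these cells.

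In untreated WT cells the host RNAs differed widely per length of exon. On the scale of CPM per kilobase of merged exons, Snhg6 stood highest at 49.7 and 50.4 in the 2 libraries, and Gas5 next at 47.3 and 48.2. Snhg5 (43.4 and 39.1) and Snhg3 (38.8 and 39.3) overlapped and were not in a fixed order. Snhg1 followed at 33.2 and 32.2, then Snhg8 at 24.1 and 21.2 and Snhg15 at 20.8 and 17.8. Zfas1 stood at 17.1 and 16.5, Snhg12 at 11.8 and 10.6 and Dancr, first described as an RNA that holds back differentiation, lowest at 6.41 and 7.79. Merged exons ran from 853 bases in Snhg8 to 3760 in Gas5, and in Snhg1, Snhg8, Snhg12, Zfas1 and Dancr they cover the whole gene span, so that the spliced RNA is shorter. In Gas5 (3760 of 4118 bases) and Snhg5 (1730 of 1880) they cover most of the span. In Snhg6 (1146 of 2160), Snhg15 (1359 of 3170) and Snhg3 (986 of 5673) they cover less of it. The order above therefore depends on the length used. From here on, levels are CPM and are compared only within a gene.

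After 12 h of IAA the host RNAs were lower in most degron lines and did not pass the test in WT or RPB4 cells. Each line was compared with its own untreated libraries by edgeR's quasi-likelihood test, with Benjamini-Hochberg adjustment over all 17928 genes tested and a threshold of 0.05. Log2 fold changes are given with their standard errors. In WT cells none of the 10 passed (edgeR, 0 at an unadjusted p under 0.05, with 1.65% of all genes called), and their log2 fold changes lay between -0.29 and 0.07. In the RPB4 line none passed either (edgeR, 0 at an unadjusted p under 0.05, with 2.08% of all genes called), with a median of 0.14. Under DESeq2 the count was also 0 in both. In the RPB12 line only Snhg1 passed, higher at 0.34 ± 0.11, where 4.79% of all genes were called and 2.14% were called higher. That call was lost under 5 of the other settings and whenever 1 library of the line was left out.

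The remaining lines are given beside the share of all genes called in the same direction. In RPB3 cells all 10 were lower (23.3% of all genes), with a median of -1.81 against 0.06 for all genes. RPB2 cells had 8 lower (34.0%) and 2 higher (27.9%), median -1.86 against -0.19. In RPB9 cells 9 were lower (18.0%), median -1.61. In RPB7 cells 9 were lower (21.1%), median -0.84. Both RPB1 and RPB5 cells had 7 lower and 1 higher. The background was 30.5% lower and 35.8% higher in RPB1, and 28.1% and 31.0% in RPB5, with member medians of -1.14 and -1.58. RPB6 and RPB8 cells each had 6 lower and 2 higher. The background was 33.4% and 27.3% in RPB6 and 30.2% and 31.5% in RPB8, with member medians of -0.54 and -0.46. RPB10 cells had 5 lower (21.2%, median -0.32) and RPB11 cells 4 lower (13.1%, median -0.28). Summed over the 12 degron lines, 71 of 120 values were called lower and 9 higher. Over all genes and all 13 lines, WT included, 19.8% of values were called lower and 19.1% higher.

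These directions are relative to the scaling. Under trimmed-mean scaling, used throughout, the median of all genes was -0.19 in RPB2 and nearer to 0 in every other line. With counts scaled to the library total instead it was -1.03 in RPB2 and -0.75 in RPB6, and with counts scaled to the 13 mitochondrial mRNAs it was -2.32 in RPB2, -2.08 in RPB6, -1.43 in RPB8 and 0.80 in RPB3. Of the 120 member values, total counts gave 73 lower and 5 higher and mitochondrial mRNAs 73 lower and 0 higher. In RPB2 the split was 8 lower and 2 higher as given, 8 and 0 under total counts, and 10 and 0 under mitochondrial mRNAs. In RPB6 it was 6 and 2, then 8 and 0, then 10 and 0, and in RPB8 it was 6 and 2, then 7 and 1, then 9 and 0. RPB1 had 7 and 1, 7 and 2, and 7 and 0, and RPB5 7 and 1, 7 and 1, and 8 and 0. All genes moved too: of the genes called in RPB2, 45.1% were higher as given, 21.2% under total counts and 0.636% under mitochondrial mRNAs. Of all 17928 genes, 13910 were called lower in RPB2 under mitochondrial mRNAs, 13958 in RPB6 and 11799 in RPB8. Under total counts 9271, 8628 and 6211 were, in the same order. In RPB1 and RPB5, 4331 and 4496 genes were called lower under total counts, and 7037 and 6325 under mitochondrial mRNAs. Changes of sign were counted only for values called as given or under the other scaling. The 10 member values with such a change under at least 1 of these scalings (12 in all) stayed on the same side of the median of all genes as before. A change of scaling shifts all genes of a comparison by nearly the same amount. This outcome was therefore all but fixed in advance, and nothing is read from it about these values.

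**Figure D1:**
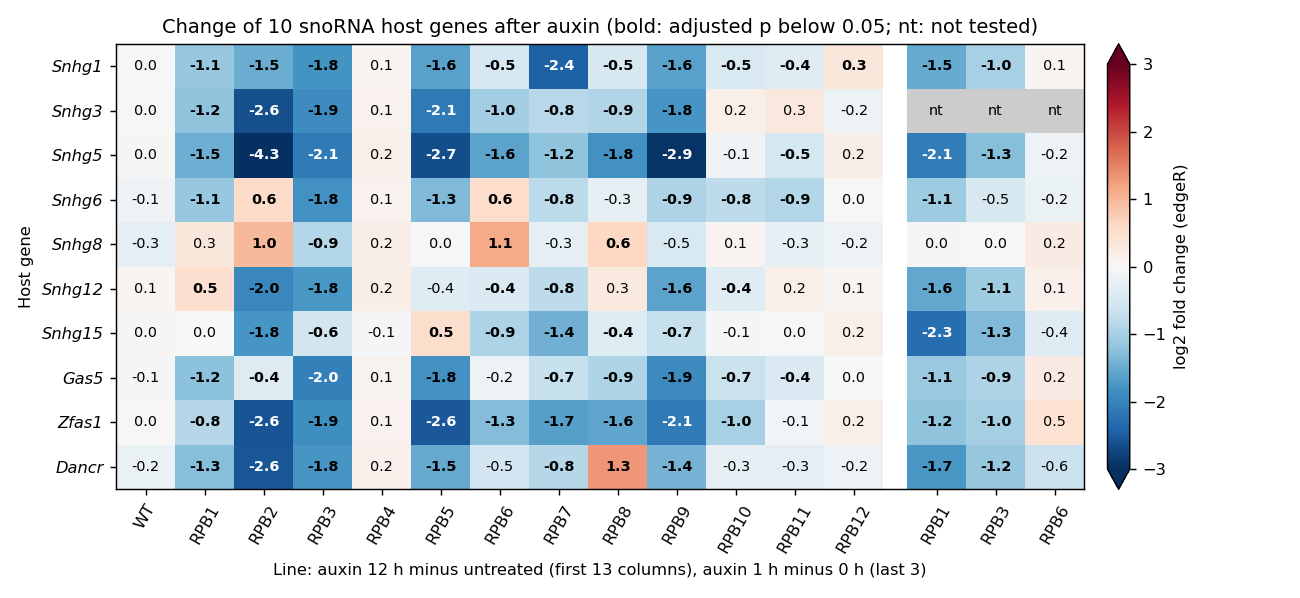
The colour and the number in each cell give the log2 fold change at 12 h of IAA against untreated cells (edgeR, trimmed-mean scaling) for each host (rows) in WT and the 12 degron lines (first 13 columns), and at 1 h against 0 h in 3 lines (last 3 columns). Bold marks an adjusted p below 0.05 and grey a gene not tested. The WT and RPB4 columns stay near 0 (medians of 0.00 and 0.14), RPB3 is lower in all 10 rows, and the Snhg8 row is the one with the fewest lines called lower, 1 of 12.

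Snhg5, the host of the U50 snoRNAs (chr9:88521050-88522929, minus strand, 1730 exon bases), fell furthest of the 10. Its levels in RPB2 cells were 73.6 and 105 CPM untreated and 5.71 and 3.73 CPM after IAA, a log2 fold change of -4.25 ± 0.24. The treated pair lay far below all 26 untreated libraries of the set, whose lowest was 35.3 CPM. In RPB9 cells it went from 76.2 and 83.2 to 11.2 and 9.63 CPM (-2.93 ± 0.16), and in RPB5 cells from 81.7 and 69.1 to 11.6 and 12 CPM (-2.67 ± 0.17). It was called lower in 9 of 12 degron lines. The RPB6 pair ended at 20.5 and 20.9 CPM (-1.61 ± 0.17), a level reached also in RPB8 cells (21.5 and 23.8 CPM). RPB1 cells kept more of it, 31.8 and 33.7 CPM against 95.7 and 83.5 untreated (-1.45 ± 0.14). RPB10 (-0.12), RPB4 (0.16) and RPB12 (0.19) did not pass.

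Snhg1, the host of U22 and 7 other snoRNA genes (chr19:8723475-8726443, plus strand), had widely spread starting levels. Untreated libraries ran from 92.3 CPM in RPB3 to 441 CPM in RPB7, with a median of 112 CPM. After IAA the RPB7 pair fell from 308 and 441 to 73.2 and 65 CPM (-2.44 ± 0.11), its largest change. The treated RPB7 libraries were thus below the untreated libraries of every line, not only of their own. RPB3 cells went from 93.1 and 92.3 to 26.2 and 27.2 CPM (-1.80 ± 0.12), the lowest level of this gene in any library. It was called lower in 10 lines in all, with the smallest falls at -0.38 ± 0.11 in RPB11 (not called in 3 of the 4 fits that left out 1 of its libraries) and -0.47 ± 0.11 in RPB10. The only lines where it was not lower were RPB4 (0.07) and RPB12 (above).

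Gas5, growth arrest-specific 5 (chr1:161034422-161038539, plus strand), had the most reads of the 10 over the longest exons, at 178 and 181 CPM in untreated WT cells and 175 and 169.8 CPM after IAA. It was lower in 9 lines and higher in none. RPB3 cells held 138 and 134 CPM before and 35 and 30.9 after (-2.05 ± 0.12). RPB9 (-1.92 ± 0.11) and RPB5 (-1.82 ± 0.11) had falls of like size. In RPB2 and RPB6 the values were nearer 0: Gas5 went from 168 and 197 to 137 and 144 CPM in RPB2 (-0.38 ± 0.11, not called under relative log expression scaling or DESeq2, -0.14 in both, nor without the second untreated library, -0.26) and from 176 and 165 to 151 and 155 CPM in RPB6 (-0.16 ± 0.11, not called). Snhg5 lost most of its reads in the same RPB2 libraries.

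Zfas1, which hosts C/D snoRNAs of the Snord12 family (chr2:167062934-167065862, plus strand), was lower in 9 lines. It stood at 40.2 and 60.5 CPM in untreated RPB5 cells and at 9.16 and 8.15 CPM after IAA (-2.55 ± 0.24), and at 47.8 and 75.7 CPM, then 13.3 and 7.46 CPM, in RPB2 (-2.59 ± 0.28). Untreated and treated libraries did not overlap in either. With 2 libraries a group this says little, since it was so for some members in WT too, where none was called. The share of all genes without overlap was not counted. It also had the largest change of any member in RPB10, from 109 and 104 to 54.1 and 52.4 CPM (-0.999 ± 0.17). In RPB11 it did not pass (-0.11 ± 0.18). Its exons share 82 bases with Znfx1 on the other strand and 189 with Gm27494 on the same strand, and how reads in both were assigned was not given in the sources used here.

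Snhg6, with 1 C/D snoRNA (Snord87) in an intron (chr1:9941959-9944118, minus strand), moved both ways. It fell in RPB3 from 40.8 and 44.4 to 13.9 and 10.2 CPM (-1.82 ± 0.16) and in 6 other lines, RPB11 among them, where its change was the largest of any member, 65.4 and 44.5 to 27.3 and 31.7 CPM (-0.89 ± 0.14). In RPB2 it was higher, 42.3 and 47 CPM before and 69.4 and 64.8 after (0.58 ± 0.15), a direction that reversed under total counts (-0.27) and mitochondrial mRNAs (-1.62). In RPB6 it was higher as well, 38.7 and 42.9 CPM before and 55.6 and 64.5 after (0.56 ± 0.14, not called without the second treated library, 0.40), again reversed under total counts (-0.071) and mitochondrial mRNAs (-1.41). RPB8 did not pass (-0.26 ± 0.14). Its exons share 127 bases with Mcmdc2 on the other strand.

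Of the hosts of H/ACA snoRNAs, Snhg3 (chr4:132348014-132353686, minus strand), host of the U17 copies Snora73a and Snora73b, followed Snhg5 and Zfas1 most closely: over WT and the 12 lines its 12 h log2 fold changes correlated with those of Snhg5 at 0.95 and of Zfas1 at 0.90 (Pearson's r, 13 lines, a description, since all lines passed through 1 scaling). It went from 29 and 35.6 to 3.81 and 6.52 CPM in RPB2 (-2.65 ± 0.28) and from 27.1 and 32.8 to 8.55 and 4.93 CPM in RPB5 (-2.15 ± 0.21). It was lower in 8 lines and higher in none, and the 4 lines that did not pass were RPB4, RPB10, RPB11 (0.32 ± 0.17) and RPB12. Its exons share 135 bases with Rcc1 on the same strand and 705 bases with Gm17300 on the other strand.

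Snhg8, host of Snora24 (chr3:123507552-123508404, minus strand), was lower in RPB3 alone among the lines, from 10.1 and 10.1 to 6.09 and 4.85 CPM (-0.88 ± 0.30), and not under mitochondrial mRNAs (-0.18) or in 3 of the 4 fits without 1 library (-0.75 to -0.88). In 3 lines it was called higher. RPB6 cells went from 12.5 and 14.9 to 29.1 and 31.1 CPM (1.13 ± 0.24), RPB2 cells from 24.7 and 18.5 to 45.7 and 38.7 CPM (0.98 ± 0.22) and RPB8 cells from 15 and 16.2 to 25.5 and 22.5 CPM (0.62 ± 0.24, not called without the first untreated library, 0.56, or the first treated one, 0.49). In none of the 3 did treated and untreated libraries overlap, yet under total counts the values were 0.50, 0.13 and 0.46 and were not called, and under mitochondrial mRNAs they reversed to -0.83, -1.25 and -0.89. In the remaining 8 lines it did not pass, with RPB5 at -0.03 ± 0.22 beside the large falls of Snhg5 and Zfas1 there.

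Snhg15, host of Snora9 (chr11:6525591-6528760, minus strand), was lower in 6 lines and higher in RPB5. It fell from 32.1 and 35 to 8.09 and 11.6 CPM in RPB2 (-1.77 ± 0.24) and from 61.8 and 83.7 to 29 and 24.4 CPM in RPB7 (-1.44 ± 0.15). RPB6 (-0.92 ± 0.21), RPB9 (-0.69 ± 0.18) and RPB8 (-0.41 ± 0.17) were lower as well. The RPB6 value was -1.38 without the first treated library, the RPB9 call was lost without the second treated library (-0.54), and the RPB8 call without the first untreated (-0.35) or first treated one (-0.34). In RPB5 it was called higher, 29.4 and 40.4 CPM before and 46.2 and 54.9 after (0.52 ± 0.15). That call was lost without the first untreated (0.32) or the second treated library (0.39), the value was 0.78 without the second untreated one, and it was -0.035 under mitochondrial mRNAs. RPB1 cells held 35.6 and 38.8 CPM before and 35.3 and 39.1 after, and the gene did not pass there. RPB3 cells held 30.7 and 33.6 CPM, then 24 and 18.9 CPM (-0.58 ± 0.16), the smallest fall of the 10 in that line, which was not called without the second treated library (-0.44) and reversed to 0.27 under mitochondrial mRNAs, where all genes had a median of 0.80.

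Dancr, host of Snora26 (chr5:74093060-74095406, plus strand), had the lowest counts per length and moved in opposite directions in RPB2 and RPB8. RPB2 cells fell from 11.6 and 16 to 2.85 and 1.86 CPM (-2.56 ± 0.37). RPB8 cells held 8.39 and 13 CPM untreated and 28.9 and 24.7 after IAA (1.33 ± 0.20), the largest rise of any member at 12 h, and -0.16 under mitochondrial mRNAs. In RPB6, which shared the rise of Snhg8, Dancr was at 8.42 and 9.63 CPM, then 7.62 and 4.73 CPM (-0.55 ± 0.28) and did not pass. It was lower in 6 lines in all.

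Snhg12, host of both kinds (chr4:132308623-132311024, plus strand), was lower in 6 lines, most in RPB2, from 33.1 and 39.6 to 9.51 and 9.32 CPM (-1.95 ± 0.23), and RPB3, from 28.6 and 26.7 to 8.12 and 8.25 CPM (-1.75 ± 0.18). In RPB1 cells it was higher, 40.05 and 35.7 CPM before and 49.8 and 57.4 after (0.50 ± 0.14), with a value of -0.062 under mitochondrial mRNAs. The smaller falls in RPB6 (-0.42) and RPB10 (-0.37) were not called by DESeq2. Leaving out any 1 of its libraries ended the RPB6 call, and the RPB10 call was lost without the first untreated (-0.28) or second treated library (-0.21). In RPB8 (0.29 ± 0.17) it did not pass and reversed to -1.22 under mitochondrial mRNAs. The members' profiles differed. Over the 13 lines, the fold changes of Zfas1, Snhg1 and Snhg3 each correlated at 0.87 with the mean of the other 9 members, those of Snhg15, Snhg6 and Snhg8 at 0.42, 0.33 and 0.07.

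**Figure D2:**
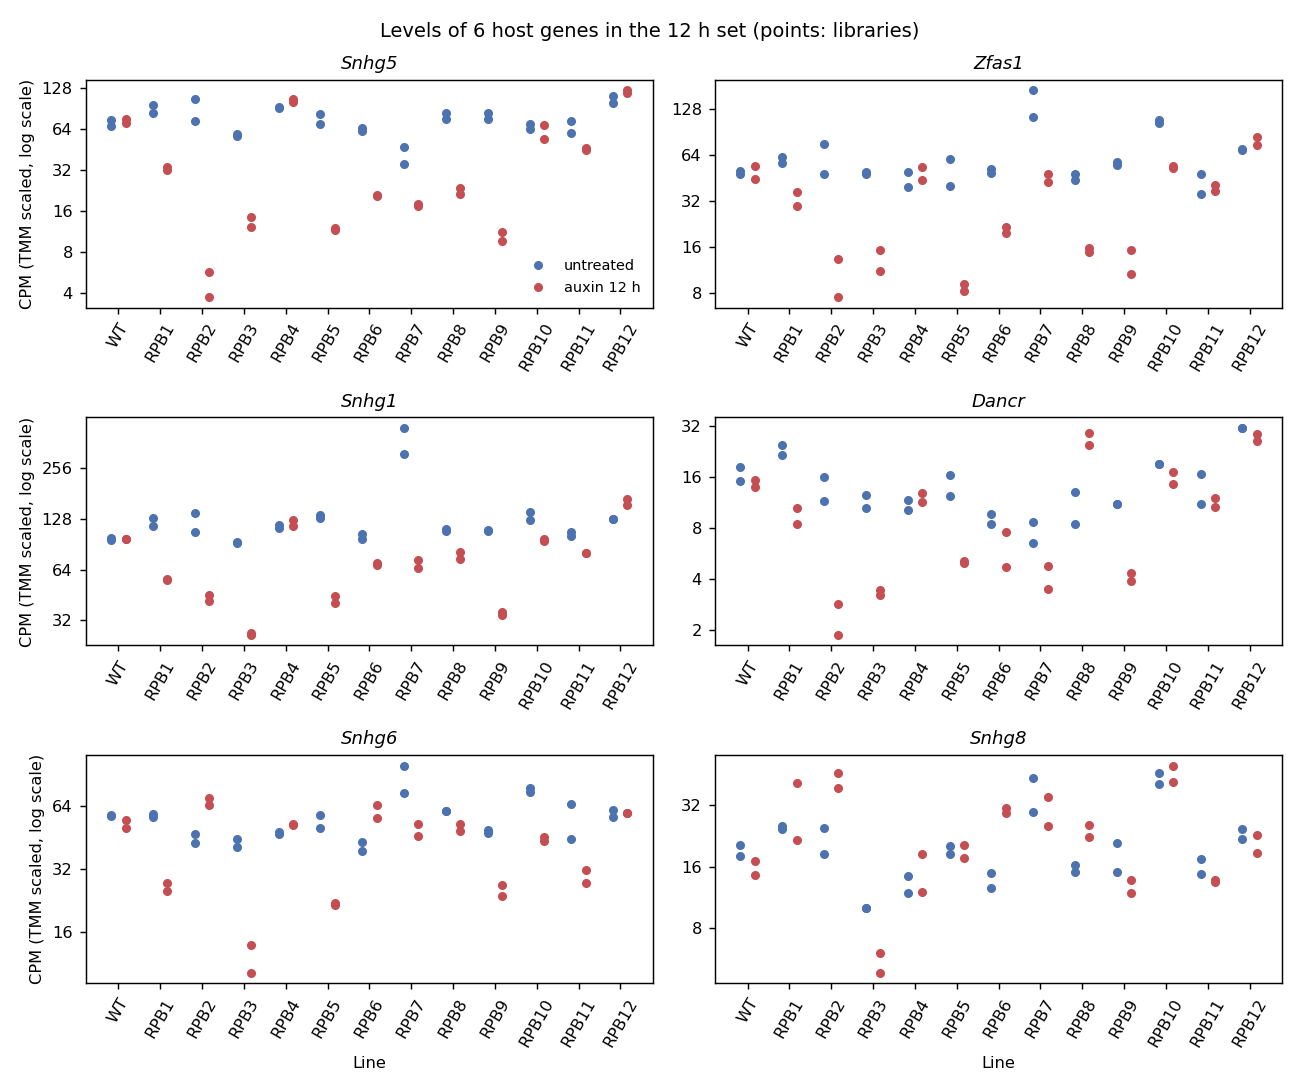
Each point is 1 library, untreated (blue) or after 12 h of IAA (red), in WT and the 12 degron lines, and the axis is CPM on a log scale, for 6 of the hosts. Snhg5 in RPB2 drops from 73.6 and 105 to 5.71 and 3.73 CPM, and Snhg8 in RPB6 stands at 29.1 and 31.1 CPM above its untreated 12.5 and 14.9.

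The response of each line was then tested against that of WT cells in the same fit. The 12 tests share the 4 WT libraries. Over them, 69 of 120 member values differed from the WT response, 63 lower (16.3% of all values tested were) and 6 higher (13.7%). The share of all genes that differed was uneven between the lines and stands beside each count. RPB9 (18.0% of all genes), RPB3 (28.2%) and RPB2 (55.5%) had 9 members each, and RPB7 (25.2%) had 8. RPB5 (42.3%), RPB1 (49.1%), RPB8 (49.5%) and RPB6 (54.1%) had 7 each. RPB10 (25.6%) had 4 and RPB11 (11.3%) had 2, and RPB4 (0.284%) and RPB12 (0.530%) had 0 by edgeR. In RPB12, 1 member was at an unadjusted p under 0.05, and in RPB4 none. Gas5 in RPB2 did not differ from its WT response (-0.32), nor did Dancr in RPB7 (-0.66) or Snhg8 in RPB3 (-0.59). Snhg6 (0.69) and Snhg8 (1.42) in RPB6 did.

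Partners within the polymerase were compared next. RPB4 and RPB7 form the stalk, and RPB3 and RPB11 a pair on which the enzyme assembles. The RPB7 response was lower than the RPB4 response for 9 of 10 members (24.5% of all genes differed), with differences of -2.51 ± 0.15 for Snhg1 and -1.79 ± 0.25 for Zfas1. Snhg8 did not differ (-0.48 ± 0.31), and Dancr (-1.01 ± 0.34) was not called by DESeq2 or in 4 of the 8 fits without 1 library (-0.80 to -0.92). The levels show the contrast: Snhg1 was at 118 and 113 CPM untreated and 117 and 126 CPM treated in RPB4. The RPB3 response was lower than that of RPB11 for 8 of 10 members (12.3% of all genes differed), most for Snhg3 (-2.21 ± 0.27) and Snhg12 (-1.94 ± 0.24). Snhg15 (-0.55 ± 0.22) and Snhg8 (-0.63 ± 0.38) did not pass. Scaled to mitochondrial mRNAs, 11 values were called over both pairs, against 17. How far each protein was depleted was not measured in these files, so partners are compared by their lines and not by an equal loss.

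Before IAA many genes already differed between the lines and WT, members among them. Over the 12 untreated lines 47 of 120 member values differed from untreated WT, where 29.3% of all values were called. Of these, 30 were higher (14.7% of all values) and 17 lower (14.6%), the latter near the share of all values. The tests share the 2 untreated WT libraries, and without the second of them the count was 31 (21 higher, 10 lower). Under total counts it was 43 (19 higher, 24 lower) and under mitochondrial mRNAs 15 (12 higher, 3 lower). The share of all values is not given here for these settings. RPB7 had all 10 (53.7% of all genes), 7 higher (26.9%) and 3 lower (26.8%). Snhg1 was at 308 and 441 CPM there against 98.6 and 95.5 in WT (1.94 ± 0.11), and Zfas1 (1.52 ± 0.17) and Snhg15 (1.46 ± 0.15) were higher too. Dancr (-1.14 ± 0.20), Snhg5 (-0.80 ± 0.13) and Snhg3 (-0.52 ± 0.15) were lower. These are also the 2 untreated libraries that differed most from each other, and each of the 10 members was higher in the second of them. RPB12 had 7 higher (19.6% of all genes were higher), led by Dancr at 31.1 and 31.1 CPM against 15 and 18.3 (0.90 ± 0.17). RPB10 had 6 higher (31.8%), among them Snhg8 at 45.8 and 40.5 CPM against 20.5 and 18.1 (1.15 ± 0.20) and Zfas1 (1.11 ± 0.17).

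At 1 h of IAA the host RNAs were lower in RPB1 and RPB3 cells. Each 1 h pair was compared with the 0 h pair of its line over 15658 genes. In RPB1 cells 8 of the 9 members tested were lower (13.9% of all genes were called lower), and in RPB3 cells 7 of 9 (0.351%). Only 56 genes in all passed in RPB3, 55 of them lower, so that 7 of those 55 were members. In the libraries labelled RPB6 0 members passed by edgeR (1.54% of all genes, 4 members at an unadjusted p under 0.05, and 0 by DESeq2).

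Snhg15 fell furthest in both. It was at 21.3 and 20.7 CPM at 0 h and 4.79 and 3.72 CPM at 1 h in RPB1 (-2.29 ± 0.20), and at 25.3 and 26.7, then 8.04 and 12.3 CPM in RPB3 (-1.33 ± 0.16). At 12 h of IAA, in the other set, it did not pass in RPB1. Snhg5 was at 95.8 and 101 CPM, then 22.3 and 23.3 CPM in RPB1 (-2.11 ± 0.10), and at 77.1 and 71, then 31.2 and 30.3 CPM in RPB3 (-1.27 ± 0.09). Snhg1 went from 109.99 and 98.5 to 37.2 and 36 CPM (-1.51 ± 0.10) and from 89.3 and 86.1 to 38.9 and 48.6 CPM (-0.99 ± 0.09). For these 3 genes no 1 h library of RPB1 or RPB3 overlapped a 0 h library of its line. With 2 libraries a group this says little by itself. In the libraries labelled RPB6 some members did not overlap either, and 0 were called. How many of all genes did not overlap was not counted. Gas5 was at 201 and 209 CPM, then 96 and 92.4 CPM in RPB1 (-1.12 ± 0.12), and at 193 and 179, then 80.5 and 113 CPM in RPB3 (-0.93 ± 0.11).

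The others fell by similar amounts, save Snhg8. In RPB1, Dancr had -1.74 ± 0.17, Snhg12 -1.56 ± 0.18, Zfas1 -1.21 ± 0.16 and Snhg6 -1.08 ± 0.13. In RPB3 the values were -1.17 ± 0.15 for Dancr, -1.06 ± 0.15 for Snhg12 and -1.01 ± 0.14 for Zfas1, while Snhg6 (-0.49 ± 0.13) did not pass. Snhg8 was at 12.9 and 12.8 CPM, then 15.1 and 11.2 CPM in RPB1 (0.04 ± 0.26) and at 19.9 and 21.2, then 12.9 and 27.1 CPM in RPB3 (-0.01 ± 0.22), where its 2 libraries at 1 h lay on either side of the 0 h pair. Fitted with the RPB3 groups only, 4 of the 7 were called, without Gas5, Zfas1 and Snhg12, and scaled to mitochondrial mRNAs 2, Snhg1 and Snhg5. Leaving out any 1 RPB3 library gave 7 or 8 members called. The 2 RPB3 libraries at 1 h differed from each other more than most pairs (chi-square of 9.16 per degree of freedom).

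The differences between lines at 1 h were tested as well, a comparison added after seeing the data, in which each line enters 2 of the 3 contrasts. RPB1 was lower than the libraries labelled RPB6 for 7 of 9 members (0.568% of all genes) and RPB3 for 5 (0.204%). Without those libraries the one contrast left is RPB1 against RPB3, in which 3 differed (5.58% of all genes): Snhg15 (-0.96 ± 0.27), Snhg5 (-0.84 ± 0.14) and Snhg1 (-0.51 ± 0.14), all lower in RPB1. Of these, Snhg5 was called in all 8 fits that left out 1 library. The Snhg15 call was lost in 7 of the 8, with values from -0.59 (without the second RPB3 library at 1 h) to -1.20, and the Snhg1 call in 6, from -0.34 (without the same library) to -0.66. In the libraries labelled RPB6, Zfas1 went from 117 and 109 to 169 and 142 CPM (0.46 ± 0.12, not called, but called with the replicate block) and Snhg1 from 501 and 475 to 498 and 515 CPM (0.05 ± 0.08). Snhg3 could not be followed at 1 h: it had 0 to 8 counts in the 12 libraries of this set, against 8 to 335 in the 52 of the other.

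**Figure D3:**
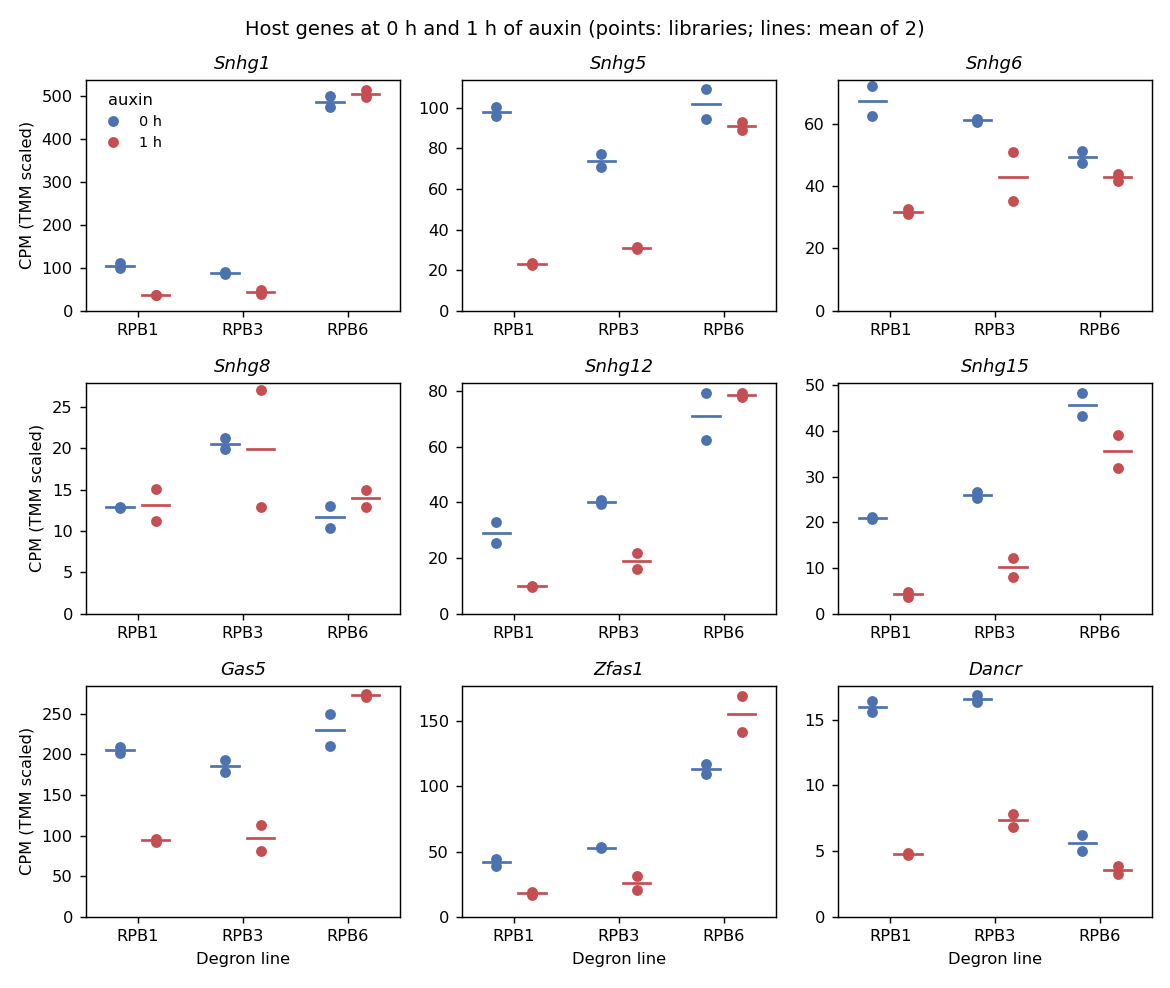
Each point is 1 library at 0 h or 1 h of IAA in the RPB1, RPB3 and RPB6 lines, on a linear axis of CPM that starts at 0, with a line at the mean of each pair, for the 9 hosts tested. In RPB1 and RPB3 the 1 h points of Snhg15, Snhg5 and Snhg1 lie below the 0 h points, Snhg8 does not separate in RPB3, and Snhg1 in the libraries labelled RPB6 starts at 501 and 475 CPM, above the other lines.

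Some hosts have a gene on the other strand that starts near their own start. Of the 10, 5 had such a neighbour starting within 2000 bases. Slc3a2, the heavy chain of an amino acid transporter, starts 106 bases from Snhg1. In RPB1 it was at 318 and 373 CPM at 0 h and 406 and 418 at 1 h (0.25 ± 0.08, higher), and in RPB3 at 415 and 436, then 409 and 449 (0.01 ± 0.08, not called). Snhg1 fell in both. Zbtb37, a zinc finger gene 427 bases from Gas5, had -0.40 ± 0.13 in RPB1 (lower) and -0.05 ± 0.12 in RPB3 (not called). Znfx1, 81 bases from Zfas1, passed in neither (0.01 ± 0.12 and -0.12 ± 0.12). Gm17300 is a noncoding gene whose start lies 1914 bases from that of Snhg3, inside Snhg3. It shares 705 exon bases with Snhg3, so it overlaps this host and does not start beside it. Gm17300 fell in RPB1 and RPB3 (-2.00 ± 0.25 and -1.44 ± 0.23). Gm43416, 91 bases from Dancr, had at most 1 count in each library of this set. At 12 h, under the same scaling as above, Slc3a2 was lower in 6 lines, RPB3 (-0.69 ± 0.08) and RPB1 (-0.34 ± 0.08) among them, and higher in RPB10 (0.22 ± 0.08), against 10 lines lower for Snhg1. Znfx1 was lower in RPB2 (-1.49 ± 0.22) and RPB6 (-1.75 ± 0.19) and higher in RPB3 (0.35 ± 0.14) and RPB7 (0.64 ± 0.16). Zbtb37 was lower in 3 lines, RPB2, RPB6 and RPB9, and Gm17300 in 7. In untreated RPB7 cells, where Snhg1 was high, Slc3a2 was also higher than in WT (1.001 ± 0.08). Whether host and neighbour respond differently was not tested as a difference.

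**Figure D4:**
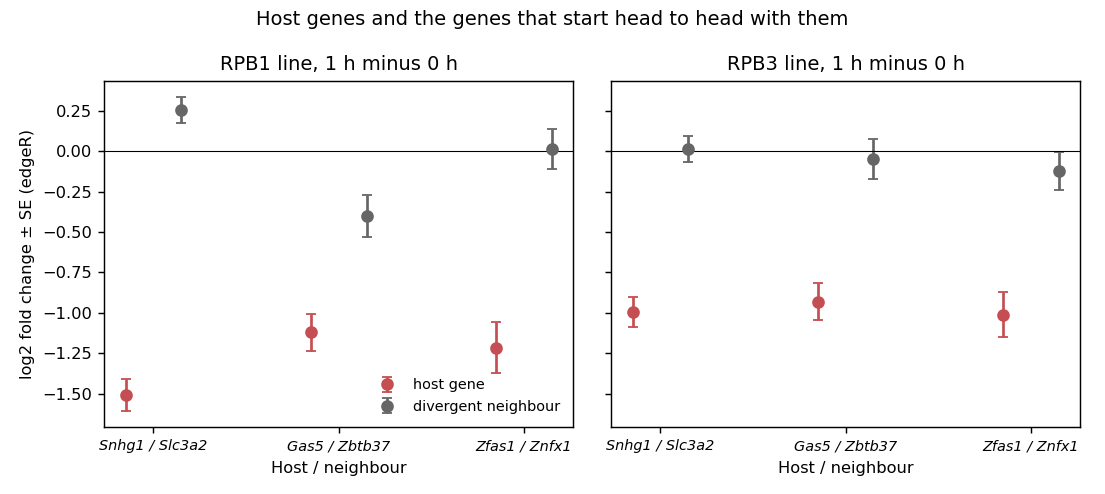
The axis is the log2 fold change at 1 h of IAA with its standard error (bars) for 3 hosts (red) and the gene that starts beside each on the other strand (grey), in RPB1 and RPB3 cells. Snhg1 lies at -1.51 and -0.99 and Slc3a2 at 0.25 and 0.01.

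Reads assigned to the snoRNAs themselves were few. Of the 34 snoRNA genes, 30 had no count in any of the 64 libraries, and all 30 lie wholly inside annotated exons of their host. A library that selects poly(A) RNA does not capture mature snoRNAs well, and the count table assigns reads by rules that are not given here, so a count of 0 says nothing about the snoRNA. The 4 with counts were Snora73b, Snora73a, Snord87 and Gm23201. Snord87, in an intron of Snhg6, had 77 counts in the 52 libraries of the 12 h set and was not tested. Snora73a had 278 and was called lower in RPB1 (-2.36 ± 0.70) and RPB3 (-3.12 ± 1.06).

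Snora73b, whose sequence is printed above, lies outside the exons of Snhg3 and had 2753 counts in the 12 h set and 0 in the 0 h and 1 h set. It was called lower in 7 lines, in all of which Snhg3 was called lower too. In RPB2 it went from 66 and 64 counts to 1 and 3 (-3.52 ± 0.45) and in RPB9 from 70 and 63 to 14 and 18 (-2.11 ± 0.25). In RPB6 it was called higher (0.77 ± 0.22, edgeR adjusted p = 0.00257), with log2 ratios of 0.15 under total counts and -1.20 under mitochondrial mRNAs, while Snhg3 was lower there (-1.04 ± 0.22). Its reads were equal to 29.9% and 40.6% of those of Snhg3 in untreated RPB6 libraries and 185% and 86.4% after IAA. This ratio within a library does not depend on the scaling. In RPB1 it was 37.3% and 32.3% untreated and 63% and 49.5% treated, and in WT 28.2% and 37.6%, then 29.5% and 35.7%. The lines did not share a direction. The ratio fell in RPB7 (27.5% and 32.9%, then 12.9% and 22%) and RPB10 (21.1% and 19.9%, then 14.3% and 11.9%). It also fell in RPB2, on few treated counts (44.6% and 26.6%, then 12.5% and 21.4%). No test was made of the ratio.

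Gm23201, a C/D snoRNA gene of Zfas1, was the one tested in both sets. In RPB1 it went from 62 and 57 counts at 0 h to 2 and 1 at 1 h (-5.31 ± 0.44, edgeR adjusted p = 3.69e-07), and in RPB3 from 28 and 33 to 10 and 15 (-1.58 ± 0.32, adjusted p = 0.0311). In the libraries labelled RPB6 it was lower too, 22 and 17 counts and then 4 and 8 (-1.74 ± 0.41, edgeR adjusted p = 0.0408), where the host Zfas1 did not pass. Set against the separate count of Zfas1, its count was equal to 15.7% and 17.4% at 0 h and 1.17% and 0.613% at 1 h in RPB1. In RPB3 the ratio was 5.69% and 6.24%, then 4.72% and 3.54%, and in the libraries labelled RPB6 it was 1.95% and 1.72%, then 0.218% and 0.649%. At 12 h it was lower in 9 lines, and in RPB2 it had 23 and 33 counts untreated and 0 in both treated libraries, which allows up to 3 counts in each. In WT it was at 36 and 33 counts and then 30 and 30. The gene lies inside an annotated exon of Zfas1, so that its reads and those of the unspliced host cannot be told apart.

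Related genes were taken from 4 lists, also written with earlier results known, and for each comparison the 6 most counted genes of a list were eligible to be named. The first was other noncoding hosts, 64 genes of which 23 were tested at 1 h. Of these, by edgeR, 5 were lower in RPB1 (13.9% of all genes), 4 in RPB3 (0.351%) and 1 in the libraries labelled RPB6 (0.600%). Snhg17 fell in RPB1 (-1.02 ± 0.09) and RPB3 (-0.51 ± 0.09), as did 1110038B12Rik (-1.68 ± 0.20 and -1.18 ± 0.18). Rian, an imprinted RNA with many C/D snoRNAs, passed in neither (-0.21 ± 0.08 and 0.04 ± 0.07). At 12 h in RPB2, 3 of 26 were higher (27.9% of all genes) and 8 lower (34.0%). Their median was -0.21, against -0.19 for all genes and -1.86 for the members.

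Protein-coding hosts made the second list, and 218 of 259 were tested at 1 h. In RPB1 35 were higher (11.0% of all genes) and 44 lower (13.9%), in RPB3 5 were lower (0.351%), and the medians were -0.06 and -0.05. Eef2, translation elongation factor 2, was higher in RPB1 (0.30 ± 0.07), and nucleolin (Ncl) did not pass (0.16 ± 0.08). At 12 h in RPB2, of 220 tested 95 were higher (27.9% of all genes) and 80 lower (34.0%), with a median of 0.04. Eef2 was at 1.68 ± 0.08 there and Rpsa at 2.08 ± 0.10. In RPB3 at 12 h 37 were higher (24.4% of all genes) and 108 lower (23.3%), with a median of -0.28 against -1.81 for the members.

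The snoRNP proteins, which bind and assemble the mature particles, were the third list (19 genes, all tested). At 1 h 8 were higher (11.0% of all genes) and 3 lower (13.9%) in RPB1, and in RPB3 the median was -0.01. Nhp2, an H/ACA core protein, was higher in RPB1 (0.86 ± 0.11) and Nop58, a C/D core protein, lower (-0.27 ± 0.07). In RPB2 at 12 h 11 were higher (27.9% of all genes) and 8 lower (34.0%). The methyltransferase fibrillarin (Fbl) was at 1.86 ± 0.12 there and Nop56 at -0.68 ± 0.08. In RPB3 at 12 h 14 were lower (23.3% of all genes) and 1 was higher (24.4%). Factors of nonsense-mediated decay, the pathway that degrades Gas5 RNA, were the fourth (20 genes, all tested). In RPB1 at 1 h 3 were higher (11.0% of all genes) and 4 lower (13.9%), and in RPB3 the median was 0.01. Upf1, its central helicase, was at 1.183 ± 0.09 in RPB2 and -0.21 ± 0.09 in RPB3 at 12 h. At 12 h 8 were higher (27.9% of all genes) and 7 lower (34.0%) in RPB2, and 5 were higher (24.4%) and 9 lower (23.3%) in RPB3. As with the members, the calls for higher in RPB2 are relative to a scaling under which the median of all genes was -0.19, and under mitochondrial mRNAs it was -2.32.

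Genes most like the members were sought among 11579 genes with a mean of at least 5 CPM, by Pearson's r over the 13 lines between a gene's 12 h log2 fold change and the mean of the 10 members. The 5 highest were Gm17300 (0.88), Zfp511 (0.87), Rabggtb (0.86), Mettl14 (0.85) and Bnip1 (0.85). Gm17300 overlaps Snhg3, and how reads in both were assigned is not given, and Rabggtb is itself a host of snoRNAs by the annotation, as 1.86% of the genes ranked are. For Gas5 alone the highest were 2410006H16Rik (0.98), a noncoding snoRNA host, Trp53i11 (0.87) and Lsm12 (0.87). These values describe 13 lines that share 1 scaling and 1 cell type.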

How the data were processed

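The deposited table holds raw read counts per gene (55335 genes) for RNA-seq libraries of mouse embryonic stem cells. Per the submitters' processing notes, the authors' tools were featureCounts, STAR, Bowtie2, cutadapt (1.18), SAMtools, DESeq2 and deepTools, with the genome builds mm10 and dm6. Their roles, the strand option, and how multi-mapping reads or reads over more than 1 gene were assigned were not given in the sources used here. Of its columns, 64 matched a sample label and 4 matched none and were not used.

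Samples were grouped by their titles into 32 groups of 2 libraries. The 52 libraries of the 12 h set and the 12 libraries of the 0 h and 1 h set were fitted apart with edgeR 4.0.16 in R 4.3.3: filterByExpr (17928 and 15658 genes kept), trimmed-mean (TMM) scaling, 1 coefficient per group, quasi-likelihood F-tests (two-sided), and Benjamini-Hochberg adjustment over all genes of a comparison with a threshold of 0.05. Residual degrees of freedom were 26 and 6. CPM values are scaled the same way. Totals were 3399838 to 7164928 and 8598431 to 13281252 counts per library. Recovery was checked on simulated data with 200 changed genes. For RPB1 at 12 h, 61.2% of 1.5-fold, 92.5% of 2-fold and 100% of 4-fold changes were recovered. For RPB3 at 1 h the values were 88.1%, 100% and 100%. In the real data 11894 of 17928 genes were called for RPB1 at 12 h. The real RPB3 libraries at 1 h differed at a chi-square of 9.16 per degree of freedom. Recovery in the real libraries was not tested.

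The members and the gene lists were chosen with earlier results of these data known. All 10 members are named in each comparison; of a list, at most the 6 genes with the highest mean CPM in it; of the genes most like the members, the 5 highest in r, and the 3 highest for Gas5. Alternatives were relative log expression (RLE) size factors, total counts, mitochondrial mRNAs, no filter, DESeq2 1.42.0, fits of only the groups compared, a replicate block and leaving out each library. Replicate numbers were not taken as pairs. SnoRNA genes and their sequences, exons and neighbours come from GENCODE M21 (mm10 positions), which named 55154 of the genes. Promoters come from RefSeq (GRCm38.p6).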

Additional observations from a re-analysis of the deposited data

Results flagged for a closer look

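The differences below come from tests of the difference itself (edgeR, adjusted p below 0.05), each over the 10 hosts at 12 h or the 9 tested at 1 h. Against the WT response at 12 h, the hosts whose response differed numbered as follows, with the share of all genes that differed: 9 in RPB2 (55.5%), 9 in RPB3 (28.2%), 9 in RPB9 (18.0%), 8 in RPB7 (25.2%), 7 in RPB1 (49.1%), 7 in RPB5 (42.3%), 7 in RPB6 (54.1%), 7 in RPB8 (49.5%), 4 in RPB10 (25.6%) and 2 in RPB11 (11.3%). Between partners, 9 hosts differed for RPB7 against RPB4 (24.5%) and 8 for RPB3 against RPB11 (12.3%). At 1 h, 7 hosts differed between RPB1 and the libraries labelled RPB6 (0.568%), 5 between RPB3 and those libraries (0.204%), and 3 between RPB1 and RPB3 (5.58%), of which 1, Snhg5, was called in every fit that left out 1 library. The 1 h counts that involve the libraries labelled RPB6 rest on a pair of groups whose 0 h profile correlated with that of the untreated RPB6 line at -0.07, and those that involve RPB1 on one that correlated with its own line at 0.11. No cause of any of these differences was tested.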

How the results depend on the processing

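Of 204 member values (127 called), RLE size factors changed 6 calls, DESeq2 7, no filter 8, total counts 9 with 2 signs reversed, and mitochondrial mRNAs 32 with 10 reversed. Reversed under mitochondrial mRNAs were Snhg12 in RPB1 (-0.062) and RPB8 (-1.22), Snhg6 in RPB2 (-1.62) and RPB6 (-1.41), Snhg8 in RPB2 (-1.25), RPB6 (-0.83) and RPB8 (-0.89), Snhg15 in RPB3 (0.27) and RPB5 (-0.035), and Dancr in RPB8 (-0.16). Under total counts Snhg6 reversed in RPB2 (-0.27) and RPB6 (-0.071). Values called neither as given nor under the other scaling were not counted as reversed. Scaling to mitochondrial mRNAs assumes a constant pool of them, which was not tested.

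Under mitochondrial mRNAs the members called numbered 0 in RPB11 and RPB12, where 515 and 72 of all 17928 genes were called. They numbered 11 between partners, 15 in untreated lines and 6 for the 1 h differences between lines (added after seeing the data). The 1 call in RPB12 became 0 under RLE, no filter, DESeq2 and each library left out. Leaving out 1 library gave 8 to 9 calls in RPB1, 9 to 10 in RPB2, 8 to 10 in RPB3, 7 to 8 in RPB5, 6 to 8 in RPB6, 8 to 10 in RPB7, 6 to 8 in RPB8, 8 to 9 in RPB9, 4 to 5 in RPB10, 3 to 4 in RPB11 and 0 to 0 in WT, RPB4 and RPB12. It gave 15 to 19 at 1 h, 65 to 73 against WT, 16 to 17 between partners, 31 to 56 in untreated lines (31 without the second WT library) and 11 to 17 for the 1 h differences. Of the 127 called values 107 were called in all such fits.

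Same-numbered libraries did not deviate together (correlations -0.29 to 0.10 at 12 h, 0.01 to 0.18 at 1 h), so the numbers were not taken as pairs. With a replicate block RPB12 had 0 calls, 17 were called at 1 h, 69 against WT, 17 between partners and 48 in untreated lines. Crossing the numbers in RPB4, RPB5, RPB7 and RPB8, where the correlation was below -0.1, gave 73 against WT and 60 in untreated lines. With 2 libraries a group, a change that missed the threshold may still be present, and counts were low for Snhg3 in the 0 h and 1 h libraries (0 to 8, although these were the deeper ones) and for the nested snoRNAs.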

Other observations

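The hosts were split by the snoRNAs they carry. The 5 with C/D and no H/ACA snoRNA genes were Snhg1, Snhg5, Snhg6, Gas5 and Zfas1. Of these, Snhg1 and Gas5 also hold 2 genes each with neither set of letters. The 4 with H/ACA and no C/D genes were Snhg3, Snhg8, Snhg15 and Dancr. The counts called lower differed between the 2 kinds in several lines, those with large responses included. In RPB10 (21.2% of all genes lower), 4 of 5 C/D hosts were called lower, with a median log2 fold change of -0.68. None of the 4 H/ACA hosts was, with a median of 0.01. In RPB11 (13.1%) the medians were -0.44 and -0.14, and all C/D hosts but Zfas1 were called lower. In RPB8 (30.2%), 4 of 5 C/D hosts were lower (median -0.92). Of the H/ACA hosts there, Snhg3 and Snhg15 were lower and Snhg8 and Dancr higher (median 0.10). In RPB5 (28.1%) all 5 C/D hosts and 2 of the 4 H/ACA hosts were lower, with medians of -1.82 and -0.78. RPB1 (30.5%) had the same counts lower, with medians of -1.14 and -0.60. In RPB2 the order was the other way, with medians of -1.50 for C/D and -2.16 for H/ACA hosts, and likewise in RPB6 at 12 h (-0.54 and -0.73). At 1 h, with 3 H/ACA hosts tested, the H/ACA medians were also the lower ones, RPB1 having -1.21 for C/D hosts against -1.74 for H/ACA hosts, RPB3 -0.99 against -1.17 and the libraries labelled RPB6 0.05 against -0.36. The split was made after the values were seen, and the difference between the kinds was not tested.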
